A study of Ogataea haglerorum with 3 samples.

Results

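In the yeast Ogataea haglerorum, 622 of 5345 annotated genes were over 400 and up to 3000 bases long and had a length that is not a multiple of 3, so that the span of the gene cannot be 1 uninterrupted reading frame. They are called off-frame genes here, and the 4119 genes of the same length range whose length is a multiple of 3 are called in-frame genes. Both names describe the annotated length and nothing else. Off-frame genes made up 13.1% of the genes in this length range and 11.6% of all genes. The rule for this choice used length and no measured level, though it was set with earlier results of these data known.

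The series set out to record gene expression in this methylotrophic yeast, for comparison with the related Ogataea polymorpha, which was not analysed here. The libraries came from 1 group, log-phase haploid cells of the strain Phaff 81-453.3. The cultures, in YPD (rich medium with glucose) at 30 °C, were harvested at an optical density (OD600) of 0.8 to 1.2, with no treatment and no other strain. Polyadenylated RNA was sequenced on an Illumina instrument in 3 libraries, numbered as replicates 1, 4 and 5, and the labels do not say that each came from its own culture. The spread given as SD is that between these libraries, and may be technical.

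Most genes of budding yeasts have no intron, and their annotated span runs from start to stop codon in whole codons. Where a budding yeast gene has an intron, it is usually a single short one near the start codon, removed from the RNA by the spliceosome before translation; in Saccharomyces cerevisiae such genes include many that encode ribosomal proteins, whose RNAs are among the most abundant of growing cells. A span that is not a whole number of codons can also belong to a reading frame broken by a frameshift or to an incomplete gene model, and an intron whose own length is a multiple of 3 leaves the span in frame. Of these genes, 0 have a symbol of their own in the RefSeq gene table used here, so they are given below by locus tag and place, with no function, and markers of haploid cells could not be looked up.

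Counts over genes totalled 34047362, 44734719 and 34526996 in replicates 1, 4 and 5, of which off-frame genes held 11.04%, 10.8% and 11.1%. A count of 0 allows up to 3 counts, which is 0.0881, 0.0671 and 0.0869 counts scaled to the library total (CPM) in these libraries, and covers counting error only. Of the 622 off-frame genes, 584 (93.9%) reached 10 counts in each library, against 4012 of the 4119 in-frame genes (97.4%) and 5170 of all 5345 genes (96.7%). All libraries were at 0 for 3 off-frame genes and 7 in-frame genes. The deposited counts summarise whole gene features, and no option to count reads that map to several places was set, so genes with a near-identical copy are uncertain.

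Off-frame genes had a lower typical level than in-frame genes, but a larger share of them exceeded 1000 TPM before matching for length. Their median was 41.1, 39.6 and 39.3 TPM in replicates 1, 4 and 5, against 54.7, 53.3 and 54.0 TPM for in-frame genes, where TPM is a level corrected for gene length and scaled to a fixed total. The ranges of the medians did not overlap between the sets, but these ranges do not cover the choice of genes. The mean of the library medians was 40.0 ± 0.93 TPM for off-frame genes, 54.0 ± 0.74 TPM for in-frame genes and 52.3 ± 0.91 TPM for all genes (SD, n = 3 libraries).

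Without matching for length, the distance between the sets was greatest among weakly expressed genes and turned round among the strongest. The 10th percentile of off-frame genes was 1.20 ± 0.11 TPM, against 5.54 ± 0.17 TPM for in-frame genes. The lower quartile was 11.9 ± 0.46 TPM for off-frame genes and 22.9 ± 0.24 TPM for in-frame genes, and the upper quartile was 105 ± 2.7 TPM for off-frame genes and 127 ± 0.83 TPM for in-frame genes. At the 90th percentile off-frame genes stood higher, at 330 ± 6.1 TPM, against 304 ± 4.3 TPM for in-frame genes. At the 95th percentile they had 833 ± 12 TPM, 1.53-fold the 544 ± 8.9 TPM of in-frame genes. A mean level under 5 TPM was found for 117 off-frame genes (18.8%), 395 in-frame genes (9.59%) and 571 of all genes (10.7%). A mean over 1000 TPM was found for 25 off-frame genes (4.02%), 121 in-frame genes (2.94%) and 179 of all genes (3.35%). At like length (below), the highest 10% of in-frame levels took in 10.3% ± 0.16 of off-frame genes, close to an equal spread.

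**Figure D1:**
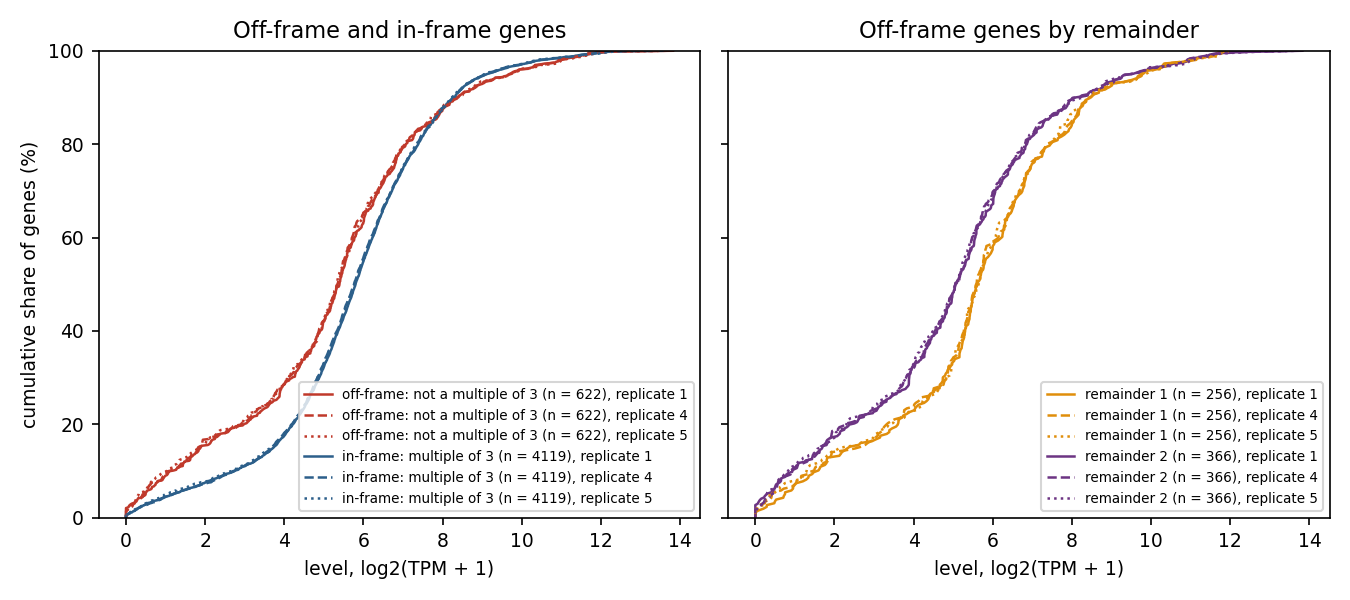
Cumulative share of genes (%) against level as log2(TPM + 1), one line per library. On the left, the 622 off-frame genes are in red and the 4119 in-frame genes in blue; the red lines lie above the blue ones at low levels, with 18.8% against 9.59% under 5 TPM, and below them at the highest levels. On the right, the off-frame genes are split by the remainder of their length after division by 3, and the genes with remainder 2 have the lower levels.

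TPM divides by the deposited gene length. Where a span includes an intron, the processed RNA is shorter than this length and the TPM understates its level. How much this lowers the TPM of off-frame genes was not tested, since the sources used here give no exon lengths.

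Off-frame genes were shorter, with a median of 949.5 bases, against 1230.0 for in-frame genes, and in-frame genes had higher levels when short, so levels were compared at like length. Each off-frame gene was set against the median in-frame gene of its 100-base length bin, on the log2(TPM + 1) scale, which understates differences of low genes. The median difference was -0.57, -0.57 and -0.56 in replicates 1, 4 and 5, a mean of -0.56 ± 0.0032 (SD, n = 3), and thus far larger than the spread between libraries. Without matching for length it was -0.42 ± 0.02. The bins held 35 to 307 in-frame genes each. No test was run on this difference, because genes are not replicates of a condition. An exact two-sided sign-flip test over 3 libraries cannot give a p-value below 0.25, and the spread between libraries does not cover the choice of genes.

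The direction was shared by a majority of off-frame genes and not by all. In every library 373 (60.0%) lay below the median in-frame gene of their bin, 217 (34.9%) lay above it, and 32 (5.14%) were on both sides.

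The level of off-frame genes showed next to no rank trend with length, and the ratio to in-frame genes was lowest in the classes of up to 700 bases, without a steady course above them. Spearman's rho of mean TPM with length was 0.00156 across the 622 off-frame genes and -0.139 across the 4119 in-frame genes, a description across genes that share libraries and carry their length in the TPM itself. From 501 to 600 bases the median was 35.8 ± 2.7 TPM in 48 off-frame genes and 82.8 ± 2.7 TPM in 201 in-frame genes, a ratio of 0.432 ± 0.032 (SD, n = 3), the lowest of the 10 classes. From 701 to 800 bases, where off-frame genes had their largest share of all length classes shown (22.9%), it was 44.5 ± 1.6 TPM in 73 off-frame genes and 70.6 ± 1.6 TPM in 246 in-frame genes, a ratio of 0.630 ± 0.011. From 2001 to 2500 bases the sets came closest, with 40.1 ± 1.3 TPM in 39 off-frame genes and 45.8 ± 0.87 TPM in 414 in-frame genes, a ratio of 0.874 ± 0.025. From 2501 to 3000 bases they lay far apart again, with 27.0 ± 1.1 TPM in 15 off-frame genes and 43.5 ± 1.1 TPM in 201 in-frame genes, a ratio of 0.621 ± 0.016. In each of the 10 length classes the off-frame median was the lower one. On the log2 scale and at matched length, the difference was -0.65 ± 0.02 for genes of up to 1500 bases and -0.25 ± 0.02 for longer ones.

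**Figure D2:**
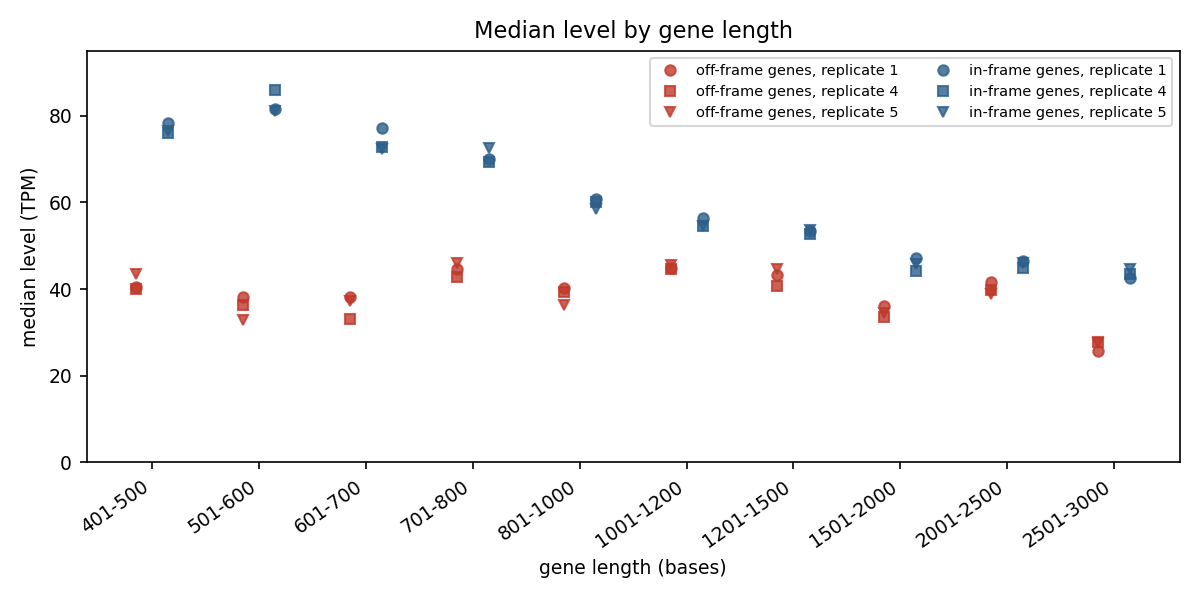
Median level (TPM) of off-frame genes in red and in-frame genes in blue for 10 classes of gene length in bases, with a point for each library. The in-frame medians lie higher in short genes (82.8 TPM at 501 to 600 bases) than in long ones (43.5 TPM at 2501 to 3000 bases), while the off-frame medians stay between 27.0 and 45.04 TPM.

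Off-frame genes under 5 TPM made up a larger share than in-frame genes in each length class, while the shares over 1000 TPM went either way. Of the 42 off-frame genes of at most 500 bases, 12 (28.6%) had under 5 TPM and 4 (9.52%) over 1000 TPM; of the 202 in-frame genes of that length, 19 (9.41%) and 20 (9.90%) did. From 701 to 800 bases, 15 of 73 off-frame genes (20.5%) lay under 5 TPM and 7 (9.59%) over 1000 TPM, against 23 (9.35%) and 9 (3.66%) of 246 in-frame genes. From 601 to 700 bases 1 of 48 off-frame genes (2.08%) and 8 of 259 in-frame genes (3.09%) exceeded 1000 TPM, and from 801 to 1000 bases 2 of 126 off-frame genes (1.59%) and 19 of 527 in-frame genes (3.61%) did. Above 2000 bases 0 of 54 off-frame genes exceeded 1000 TPM, against 9 of 615 in-frame genes.

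Placed among the in-frame genes of their own length bin, off-frame genes were thinned out above the median and piled up at the bottom. The lowest decile of in-frame levels took in 20.3% ± 0.16 of off-frame genes (SD, n = 3), which is 125 to 127 genes in each library; an equal spread would give 10%. Deciles 6 to 9 held 6.59% ± 0.43, 7.02% ± 0.33, 6.65% ± 1.07 and 6.91% ± 0.70. The highest decile held 10.3% ± 0.16, close to an equal spread.

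**Figure D3:**
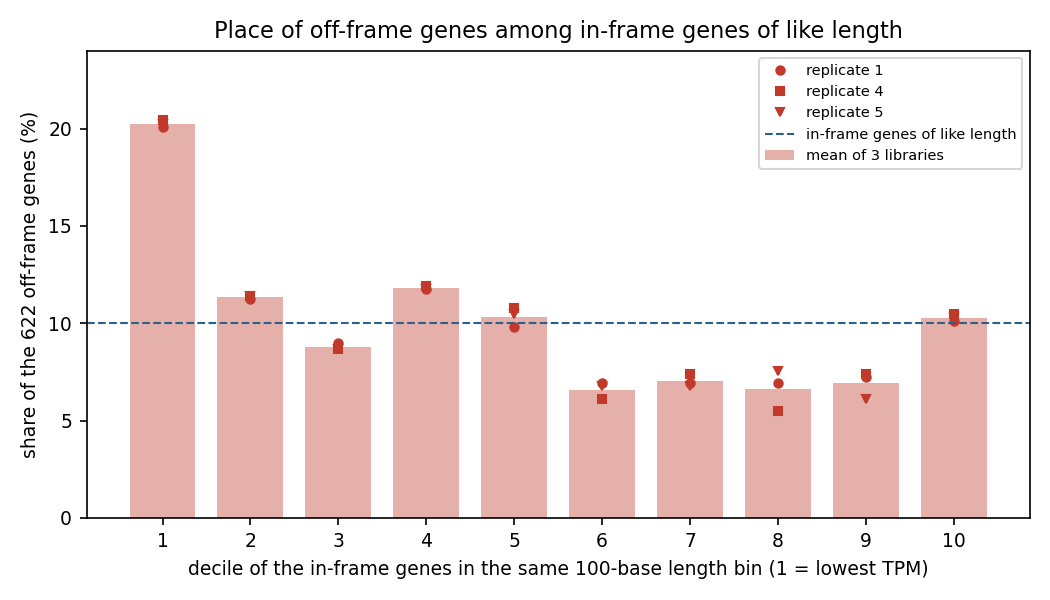
Share of the 622 off-frame genes (%) in each decile of the in-frame levels of the same 100-base length bin, with decile 1 the lowest; bars are the mean of the libraries, points the single libraries, and the dashed line the 10% of an equal spread. Decile 1 stands at 20.3%, deciles 6 to 9 lie between 6.59% and 7.02%, and decile 10 is at 10.3%.

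The 25 off-frame genes over 1000 TPM held 6.91% ± 0.18 of all TPM and the other 597 off-frame genes 5.26% ± 0.065, which makes 12.2% ± 0.17 for off-frame genes as a whole (SD, n = 3). Without the highest gene the off-frame share was 10.8% ± 0.17. The 25 genes lay on all 7 chromosomes, had a median length of 764 bases, and 0 of them lay within 50 kb of a chromosome end. Their SD between libraries was 1.504% to 15.6% of the mean, with a median of 5.69%. Replicate 5 had the highest TPM for 20 of the 25 (80.0%), for 62 of the 121 in-frame genes over 1000 TPM (51.2%) and for 36.3% of all genes with a count.

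KL911_002259 (chromosome 6, plus strand, 84568 to 85583) had 14487, 12555 and 12859 TPM in replicates 1, 4 and 5, the highest mean of any gene in the series. This was 251-fold the median in-frame gene of its length bin, at 53.1 TPM. KL911_000171 (chromosome 3, plus strand, 619427 to 619839) is 413 bases long and had 4882, 5304 and 5606 TPM. The library values of these genes did not overlap, so their order is larger than the spread between libraries.

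KL911_004670 (chromosome 6, minus strand, 747525 to 748041) had 4161, 4002 and 4094 TPM. Its neighbour on the same strand, KL911_004669 at 748250 to 749019, is also off-frame and had 1950, 1929 and 2176 TPM. These adjacent genes were thus both over 1000 TPM in every library.

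The next members of the order were close to each other. KL911_000284 (chromosome 3, 431670 to 432151) had 3460 ± 206 TPM (SD, n = 3), KL911_003286 (chromosome 7, 454499 to 455090) had 3383 ± 235 TPM, and KL911_000978 (chromosome 2, 639189 to 640284) had 3309 ± 85 TPM. These 3 means lay closer together than the SD of KL911_000284, so their order is within the spread between libraries. KL911_004927 (chromosome 4, 81766 to 82552) had 3107 ± 179 TPM. KL911_003884 (chromosome 3, 937729 to 938183) and KL911_004862 (chromosome 4, 960321 to 961051) had 2855 ± 163 and 2835 ± 168 TPM, which did not differ beyond their spread. KL911_004595 (chromosome 1, 225658 to 226403) closed the highest 10 with 2453 ± 133 TPM. Set against their own length bins, KL911_002852 (chromosome 1, 641057 to 642635) was also among the 5 that stood out most. It is 1579 bases long and had 2287, 2101 and 2045 TPM, 47.3-fold the median in-frame gene of its bin.

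**Figure D4:**
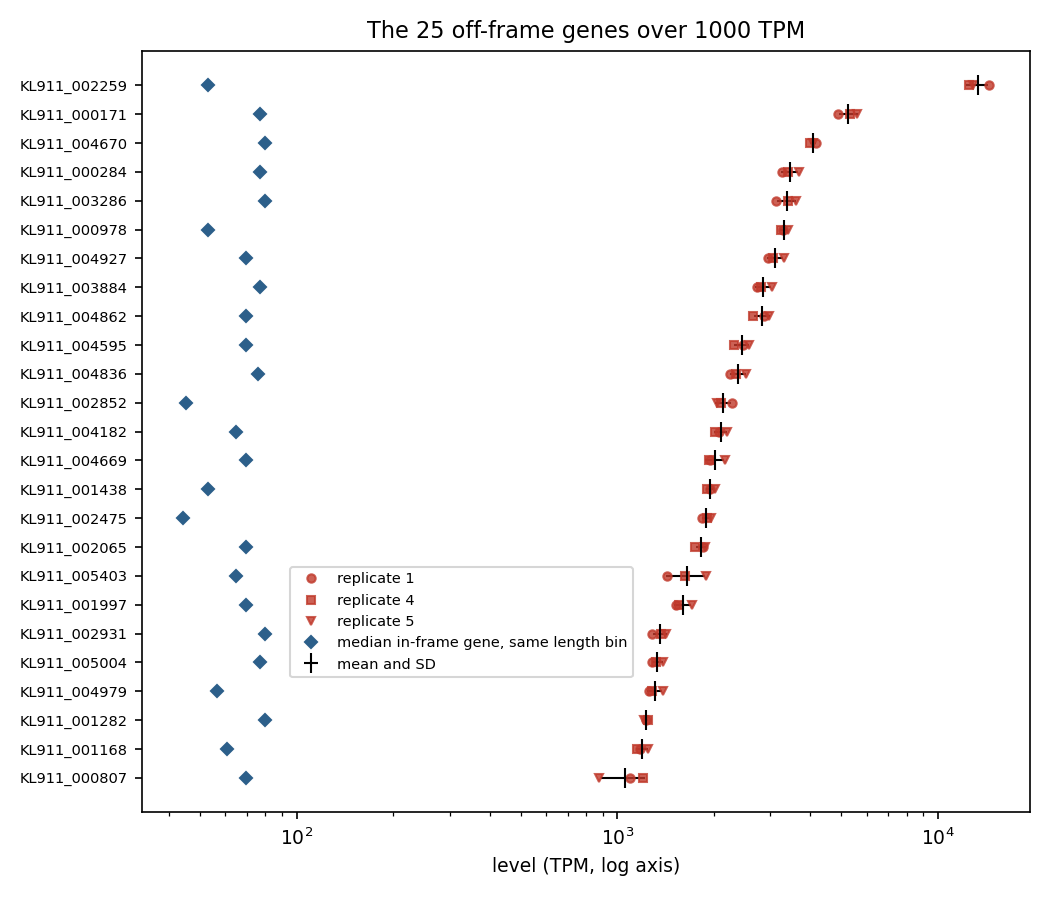
Level (TPM, log axis) of the 25 off-frame genes with a mean over 1000 TPM, with a point for each library, the mean and SD in black, and the median in-frame gene of the same length bin as a blue diamond. The genes span 1058 to 13300 TPM and the blue medians 44.2 to 79.9 TPM; the lowest gene, KL911_000807, had 878 TPM in replicate 5.

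At the other end, 117 off-frame genes had a mean under 5 TPM, and most of these had reads in every library. Of the 117, 79 had at least 10 counts in each library, and the median sum over the libraries was 117 counts. Within 50 kb of a chromosome end lay 24 of them and farther inside lay 93.

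All 3 libraries were at 0 counts for KL911_001633 (chromosome 4, 322127 to 323057), which lies far from either end, for KL911_005263 (chromosome 4, 1258989 to 1259974) and for KL911_001520 (chromosome 5, 1206631 to 1207250). KL911_004121 (chromosome 7, 961401 to 961836) had 0, 0 and 1 counts. The rest of the lowest 10 had between 0 and 5 counts in each library. They were KL911_005396 on chromosome 2 at 3859 to 5606, KL911_005398 on chromosome 4 at 1283057 to 1284876, KL911_002299 at 15765 to 17248, KL911_002105 at 365408 to 366252 and KL911_004452 at 1511260 to 1512265 on chromosome 6, and KL911_003101 on chromosome 7 at 186781 to 187559. Replicates could not be told apart at such counts.

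Set against their length bins, KL911_001523 (chromosome 5, 1210806 to 1211263) with 0, 2 and 3 counts, and KL911_001375 (chromosome 5, 987972 to 988543) with 1, 4 and 9 counts, were also among the 5 farthest below. KL911_001375 lay 259021 bases from the nearer end, counted to its far edge, while the median in-frame gene of its bin had 79.9 TPM.

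Genes on either side of the length limits are too few to compare and are given as values. The 3 shortest off-frame genes, KL911_002005 of 404 bases, KL911_005394 of 407 bases and KL911_004172 of 410 bases, had 181 ± 25, 1.45 ± 1.26 and 23.9 ± 4.6 TPM. Of these, KL911_005394 had 30 and 37 counts in replicates 1 and 4 and 0 in replicate 5. Just outside the limit, genes of 395, 395 and 397 bases had 105, 71.4 and 1103 TPM. The 3 longest, KL911_003233 of 2975 bases, KL911_000735 of 2987 bases and KL911_002814 of 2999 bases, had 43.6 ± 2.6, 15.1 ± 0.34 and 1.58 ± 0.12 TPM, and the 3 just outside, of 3004, 3142 and 3293 bases, had 44.6, 57.1 and 35.9 TPM.

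Off-frame genes were not split evenly by remainder, a split chosen after values had been seen. Division by 3 left a remainder of 1 for 256 of them and of 2 for 366 (58.8%), against 12 and 24 among genes of 400 bases or less and 11 and 12 among genes over 3000 bases. The genes with remainder 2 had 32.8, 32.2 and 32.5 TPM as the median in replicates 1, 4 and 5, and those with remainder 1 had 47.9, 47.1 and 49.0 TPM. The library medians of the 2 classes did not overlap, but the spread between libraries does not cover which genes fall in each class. Median lengths were alike, at 948.5 bases for remainder 2 and 950.5 for remainder 1.

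At matched length, genes with remainder 2 differed from in-frame genes by -0.81 ± 0.0081 and those with remainder 1 by -0.25 ± 0.05 (log2 scale, SD, n = 3). The lowest decile of in-frame levels took in 22.2% ± 0.42 of the genes with remainder 2 and 17.4% ± 0.45 of those with remainder 1; the highest decile took in 8.83% ± 0.16 and 12.4% ± 0.60. Under 5 TPM lay 78 genes with remainder 2 (21.3%) and 39 with remainder 1 (15.2%), and over 1000 TPM lay 14 (3.83%) and 11 (4.30%).

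The distance between the remainders was present in each of 4 length classes, but its size was uneven. Up to 700 bases the median was 20.7 ± 0.56 TPM for the 72 genes with remainder 2 and 46.7 ± 2.4 TPM for the 66 with remainder 1. From 1001 to 1500 bases it was 34.8 ± 1.1 TPM for 92 genes with remainder 2 and 70.4 ± 5.8 TPM for 57 with remainder 1. In this class the genes with remainder 1 stood above in-frame genes of like length by 0.33 ± 0.17 (log2 scale), while in the other 3 classes they stood below. Whether the length of introns or other features differ between the remainders was not tested.

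Off-frame genes were spread over all 7 chromosomes and both strands. Their share of the genes of this length range was lowest on chromosome 6, with 87 genes (10.96%), and highest on chromosome 7, with 84 genes (15.2%). On the plus strand lay 52.1% of off-frame genes and 50.1% of in-frame genes. The off-frame median was below the in-frame median on each chromosome, with 32.2 ± 0.81 TPM for off-frame genes and 46.3 ± 2.0 TPM for in-frame genes on chromosome 7, and 36.4 ± 1.6 TPM for off-frame genes and 57.7 ± 1.3 TPM for in-frame genes on chromosome 6. The sets were closest on chromosome 5, at 43.4 ± 1.5 TPM for off-frame genes and 49.4 ± 0.63 TPM for in-frame genes. Chromosome 7 also had the largest share of genes under 5 TPM in both sets, with 21 of 84 off-frame genes (25%) and 64 of 469 in-frame genes (13.6%).

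Near the chromosome ends the share of genes under 5 TPM was alike in the sets, and off-frame genes had the larger share farther inside. Within 20 kb most genes of both sets lay under 5 TPM, so this share hardly separates them. The off-frame median was the lower one there too. Distances run from the chromosome end to the far edge of a gene, and so include its own length. Right ends are taken at the last annotated base, so true distances there are longer. Within 20 kb of an end, 14 of 21 off-frame genes (66.7%) and 72 of 109 in-frame genes (66.1%) had under 5 TPM, with medians of 0.249 ± 0.069 TPM for off-frame genes and 2.11 ± 0.083 TPM for in-frame genes. From 20 to 50 kb, 10 of 25 off-frame genes (40.0%) and 72 of 195 in-frame genes (36.9%) did. Over 50 kb from an end, 93 of 576 off-frame genes (16.1%) and 251 of 3815 in-frame genes (6.58%) did, and the medians were 41.6 ± 1.4 TPM for off-frame genes and 57.4 ± 1.0 TPM for in-frame genes. The difference at matched length, without genes within 50 kb of an end, was -0.58 ± 0.0084.

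**Figure D5:**
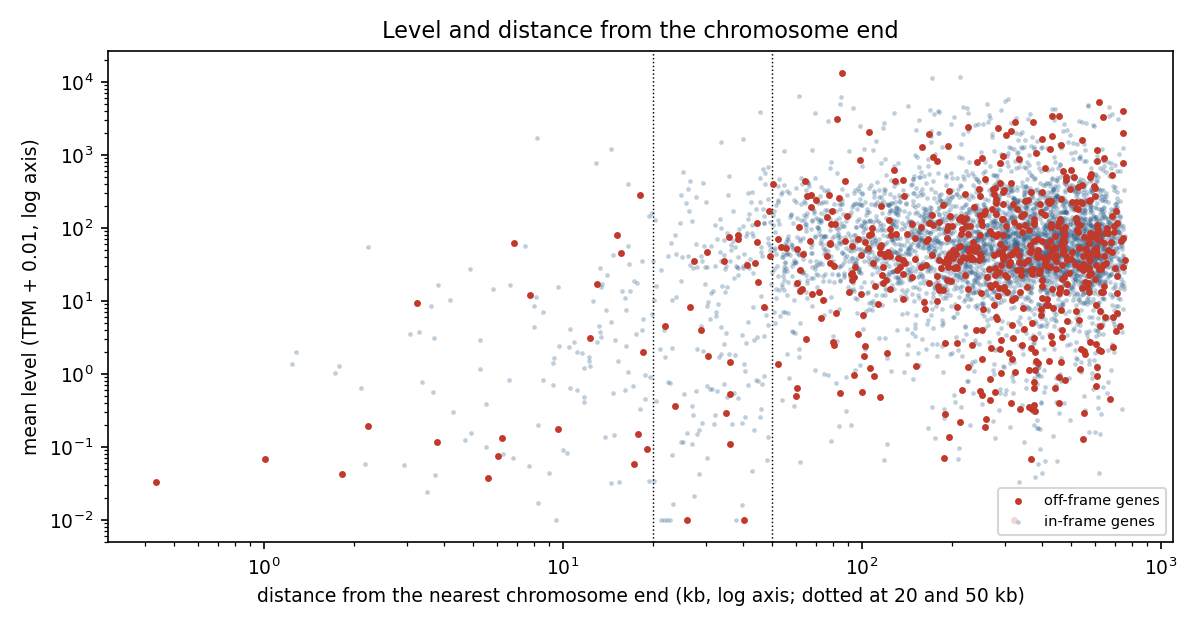
Mean level (TPM + 0.01, log axis) against distance from the nearest chromosome end (kb, log axis), with off-frame genes in red and in-frame genes in pale blue and dotted lines at 20 and 50 kb. Low genes fill the left of the plot in both sets, and beyond 50 kb the points under 5 TPM make up 16.1% of off-frame and 6.58% of in-frame genes.

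Of the 5 off-frame genes nearest an end, KL911_004121, KL911_004452, KL911_005398 and KL911_004451 had at most 7 counts in any library. The fifth, KL911_005406 (chromosome 1, 2761 to 3251) had 10.4, 9.97 and 7.50 TPM; it overlaps the next gene on its strand, so reads of the shared bases cannot be told apart. The highest off-frame genes within 20 kb of an end were KL911_004109 (chromosome 3, 1291365 to 1292131) with 285 ± 22 TPM (SD, n = 3), KL911_005326 (chromosome 5, 13462 to 15125) with 80.4 ± 8.5 TPM, and KL911_004117 (chromosome 3, 1302613 to 1305149) with 62.9 ± 0.82 TPM. KL911_005325 (chromosome 5, 15132 to 15603) and KL911_002659 (chromosome 2, 1441320 to 1443334) followed with 46.2 ± 5.3 and 17.4 ± 0.65 TPM.

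Off-frame genes often stood next to each other. An off-frame neighbour was found beside 205 of 622 off-frame genes (33.0%) and beside 823 of 4119 in-frame genes (19.98%). Of 111 adjacent pairs of off-frame genes, 65 (58.6%) lay on the same strand, against 1459 of 3230 adjacent pairs of in-frame genes (45.2%). The genes of an off-frame pair differed by a median of 1.11 in log2(TPM + 1), those of an in-frame pair by 1.61 and those of a mixed pair by 1.96. Both genes lay under 5 TPM in 13 off-frame pairs (11.7%) and in 118 in-frame pairs (3.65%). The log2(TPM + 1) scale understates differences of low genes, so the median differences of these pairs cannot be compared on equal terms. Taken singly, 18.8% of off-frame genes and 9.59% of in-frame genes lay under 5 TPM, so the pair shares start from unlike base rates. Whether adjacency adds more in off-frame than in in-frame pairs was not tested.

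Off-frame genes with such a neighbour had a median of 32.5 ± 1.2 TPM and 46 of 205 (22.4%) under 5 TPM, while those without had 42.5 ± 1.2 TPM and 71 of 417 (17.0%). There were 11 runs of 3 and 3 runs of 4 adjacent off-frame genes. The run of 3 at the right end of chromosome 6, from 1508475 to 1512265, had means of 0.0584 to 0.188 TPM, and the run of 3 on chromosome 2 at 1351682 to 1354566 had 0.555 to 2.42 TPM. The run of 4 on chromosome 3 at 934173 to 938183 reached from 27.3 TPM to the 2855 TPM of KL911_003884, and the run of 4 on chromosome 6 at 61730 to 67441 from 13.5 to 283 TPM. Runs thus held genes of very unlike level as well as uniformly low ones.

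Most low genes inside the chromosomes had no low neighbour, with a like share in off-frame and in-frame genes. Among the 93 under 5 TPM and over 50 kb from an end, 62 (66.7%) had no adjacent gene under 5 TPM, and the same held for 171 of 251 in-frame genes (68.1%). The mean of the adjacent genes had a median of 50.8 TPM for these off-frame genes and 47.1 TPM for these in-frame genes. At any distance from an end, 63 of 117 off-frame genes under 5 TPM (53.8%) had no such neighbour. Of the 505 off-frame genes at 5 TPM or more, 427 (84.6%) had none. For in-frame genes this held for 192 of 395 under 5 TPM (48.6%) and 3206 of 3724 others (86.1%). Low genes of both sets thus had a low neighbour more often than other genes. The gap before an off-frame gene had a median of 130 bases, against 153 for an in-frame gene, and the gap after it 96.5 bases, against 70.

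Lengths were set beside a reference gene table. The RefSeq table of the ASM1920728v1 assembly holds 621 of the 622 off-frame genes. All are listed as protein-coding, but so are all 5407 genes of that table, so the label does not set them apart. The table gives 594 of these 621 (95.7%) the same length, against 4068 of the 4082 in-frame genes it holds (99.7%). It uses the same locus tags, so it may not be a separate set of gene models. Another length that is a multiple of 3 was given for 23, and for 12 of these it differed by at most 3 bases. Among these 23 was KL911_000807 (chromosome 2, 381259 to 381995) with 1058 ± 165 TPM. The 23 genes had a median of 62.2 TPM and 2 under 5 TPM, and the 594 genes of equal length had 40.4 TPM and 113 under 5 TPM. With the 594 genes alone the difference at matched length was -0.58 ± 0.0071.

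Among genes of at least 10 CPM, the share of off-frame genes that differed at least 2-fold between libraries was near that of all genes. Counts were set against Poisson sampling by chi-square over all 4578 genes with a mean of at least 10 CPM, with Benjamini-Hochberg adjustment. This p-value covers counting error only, which most genes exceeded, so the calls below rest on the ratio. An adjusted p under 0.05 was found for 363 of the 468 off-frame genes tested (77.6%) and for 81.5% of all tested genes. With a ratio of highest to lowest CPM of at least 2 as well, 3 off-frame genes were called (0.641%), against a background of 0.612%, which is near the same share. At a ratio of at least 1.5, 10 were called (2.14%), against 3.8% of all tested genes and 149 of 3595 in-frame genes (4.14%). The ratio had a median of 1.13 in off-frame genes and 1.13 in in-frame genes. The other 154 off-frame genes lay under 10 CPM. With all genes of at least 1 count taken in, 47 of 619 off-frame genes (7.59%) were called at a ratio of 2, against 4.09% of all genes, and the part that low counts play in this difference was not tested.

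KL911_004013 (chromosome 3, minus strand, 1143464 to 1144434) had 108, 55.3 and 35.7 CPM after TMM scaling in replicates 1, 4 and 5, a ratio of 3.02. KL911_000930 (chromosome 2, minus strand, 567452 to 568863) had 36.5, 54.8 and 22.0 CPM, a ratio of 2.49. KL911_002810 (chromosome 1, plus strand, 709875 to 711292) had 287, 500 and 609 CPM, a ratio of 2.13. Replicate 5 was thus lowest for 2 of these genes and highest for the other one. Single libraries decided these calls: without replicate 5 the ratios were 1.95, 1.502 and 1.74, without replicate 1 they were 1.55, 2.48 and 1.22, and without replicate 4 they were 3.02, 1.66 and 2.13.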

How the data were processed

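The counts were deposited as raw counts per gene, made by featureCounts 2.0.1 per the file headers, on whole annotated genes, stranded (setting 1) and in paired-end mode although the labels describe single-end reads. The submitters' processing notes also name HISAT2 2.2.1, SAMtools, HTSeq and deepTools. The genome build is not given in the sources used; coordinates follow the deposited tables. The authors also deposited TPM per library; TPM recomputed from counts and lengths equalled them within 1% for each of the 609, 613 and 613 off-frame genes with a count. Counts were equal between all files, and 0 per-sample columns were left unused.

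Off-frame and in-frame genes, the gene names and the alternatives were chosen with earlier results of these data known. Genes named are the 10 highest and 10 lowest by mean TPM, the 5 farthest above and below their length bin, the 5 nearest an end, the 5 highest within 20 kb of one, the 3 shortest and longest, and the genes called as varying; others (genes of runs, neighbours and unequal reference length) were chosen after their values were seen. Levels are described as medians per library, with mean and SD over the 3 libraries and a pseudocount of 1 on the log2 scale. TMM factors came from edgeR 4.0.16 in R 4.3.3, and the rest from Python 3.11.15 (pandas 2.3.3, scipy 1.17.1, numpy 2.4.6, matplotlib 3.10.9). The statistics were tried on simulated data. For the varying genes these held counting error only, which most real genes exceeded, so they give no rate of false calls here. Alternatives covered the pseudocount, low counts, the matching, the ends, scaling and each library left out. The planned coding spans, splice site letters and product lists were not run, since no protein, sequence or product table was used here.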

Additional observations from a re-analysis of the deposited data

How the results depend on the processing

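The lower level of off-frame genes at matched length, -0.56, kept its direction under all 17 alternatives. In 14 of them it moved by at least 0.0032, the SD between libraries. It was -0.58 and -0.48 with pseudocounts of 0.1 and 10, -0.51 among genes with at least 10 counts in each library, -0.60 with 200-base bins, -0.59 with in-frame genes within 5% of the length, -0.58 without 50 kb from the ends, -0.65 for lengths up to 1500 bases, -0.25 for longer genes and -0.76 as a mean over genes. Chosen after seeing the data, it was -0.58 with equal reference length, -0.25 for remainder 1, -0.81 for remainder 2, -0.57 without 20 kb from the ends and -0.45 without genes next to another off-frame gene. It was thus more than 2 times smaller in long genes and in genes with remainder 1, and the cause was not tested. Genes with remainder 1 from 1001 to 1500 bases, not among the 17 alternatives, went the other way, at 0.33 ± 0.17. For all off-frame genes, leaving out 1 library gave -0.57 to -0.56. Without matching, the difference was -0.36 with a pseudocount of 10 and -0.43 to -0.41 with 1 library left out.

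The share in the lowest decile, an added result, was 21.1% without 50 kb from the ends (17.7% ± 0.17 with the bins of all in-frame genes kept), 18.9% among genes with at least 10 counts, 19.6% with 200-base bins and 20.2% to 20.3% with 1 library left out. Leaving out 1 library gave 114 to 118 off-frame genes under 5 TPM, 24 to 25 over 1000 TPM, 12.1% to 12.3% of TPM and 586 to 587 detected genes.

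The count of 3 varying genes was 47 of 619 with no filter beyond 1 count (7.59%, against 4.09% of all genes) and 10 at a ratio of 1.5, and 0 to 2 with 1 library left out. Without replicate 5 it was 0 by chi-square; 261 of 470 tested had an unadjusted p under 0.05, of which 0 reached a ratio of 2. Median-of-ratios scaling and library totals each called the same 3. Counts per coding length and in-frame genes with a matching protein were planned and not run, for want of a protein table here. No paired analysis was possible because all libraries belong to 1 group.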
